A study of Mus musculus with 3 samples.

Results

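The Rab family of small GTPases was described across 59 genes of 55536 in the gene tables of this study. The members were every gene that has a protein-coding transcript and a symbol made of Rab, a number and at most a paralog letter and digit, so Rab-like genes and regulators named after Rabs were not members. Counts over the whole family are set beside the same share of 22015 protein-coding genes outside the mitochondrial genome. The cells were bone-marrow-derived macrophages of C57BL/6J mice, kept for 12 h with 100 ng/ml Lipid A, the Toll-like receptor 4 ligand of bacterial endotoxin, then washed free of it for 12 h and given 100 ng/ml again for 10 min. All 3 libraries had this treatment, so no contrast between conditions could be made. Sequencing used cytosolic RNA from which ribosomal RNA had been removed. Replicates 1, 2 and 3 are biological replicates per the labels, which list a single donor identifier and no age or sex. Separate animals are not stated, so p-values measure only the spread between these libraries, which may be technical.

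Rab proteins switch between a GDP-bound form held in the cytosol and a GTP-bound form on a membrane, where they recruit tethers, motors and sorting complexes. Exchange factors load them with GTP and GTPase-activating proteins end the active state. Each Rab marks a step of transport: Rab5 proteins mark early endosomes and new phagosomes, Rab7 late endosomes and phagolysosomes, Rab4 and Rab11 recycling endosomes, Rab1 and Rab2 the route between endoplasmic reticulum and Golgi, and Rab3 and Rab27 secretory vesicles that wait for a signal. In macrophages the exchange of Rab5 for Rab7 on a phagosome is a known step of its maturation.

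The libraries held 32108408, 53165872 and 57117456 expected counts in replicates 1, 2 and 3. Levels are in TPM, transcripts scaled to a fixed total, which corrects for length and makes libraries sum alike. Protein-coding genes took 34.3%, 27.8% and 27.8% of that total, so a TPM value in replicate 1 is raised for most coding genes. Malat1, a nuclear noncoding RNA, stood at 1333, 118 and 152 TPM in replicates 1, 2 and 3. Replicate 1 therefore stood apart, and members are given by library where it matters. All 8 macrophage markers were at 1 TPM or more in every library, with summed levels of 7422 to 7960 TPM, led by Lyz2 at 2989 TPM and with Mertk lowest at 41.1 TPM. Of the 6 neutrophil markers, S100a9 (5.45 TPM) and S100a8 (3.04 TPM) reached 1 TPM in every library, while Ly6g and Retnlg had 0 counts. None of the lymphocyte, mast cell, stromal, dendritic, megakaryocyte or erythroid markers did, and the summed level of each of these lists was at most 1.37 TPM in any library. In bulk RNA, fewer cells that express a gene and less of its RNA per cell cannot be told apart.

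Sequences that bear on the results below are shown first. Rab6a, a Golgi Rab, has a pair of alternative internal exons of 106 bases each, 66 bases apart in the gene, of which a transcript holds one. They lie on the plus strand of mm10 (GENCODE M21) at chr7:100629666-100629771 and chr7:100629838-100629943. The exons differ at 30 positions, printed in capitals, and the first of these, counted from the 5′ end of the exon, is A1G with the upstream exon's base first. Their identity was 71.7%.
Rab6a upstream exon: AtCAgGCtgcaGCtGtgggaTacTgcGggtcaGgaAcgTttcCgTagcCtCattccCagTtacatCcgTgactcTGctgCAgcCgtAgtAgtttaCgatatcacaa
Rab6a downstream exon: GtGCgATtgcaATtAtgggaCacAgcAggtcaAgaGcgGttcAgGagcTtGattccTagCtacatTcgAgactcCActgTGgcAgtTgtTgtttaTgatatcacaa
Rab7b, a late endosomal Rab, has an exon of 126 bases, or 42 codons, that 1 of its coding transcripts skips. It lies at chr1:131705596-131705721 on the plus strand of the same build and is shown because transcripts with and without it held nearly equal TPM. The coding length is 597 bases with it and 471 bases without it.
Rab7b skipped exon: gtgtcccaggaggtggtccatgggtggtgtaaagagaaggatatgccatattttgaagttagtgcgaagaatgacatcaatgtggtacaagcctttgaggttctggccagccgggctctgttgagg

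Promoter windows, from RefSeq on GRCm38.p6, run from 250 bases before to 50 bases after a gene's start, and 48 of the 59 members had one. Those of Rab33b, Rab33a and Rab6b are shown with CpG dinucleotides in capitals, because the first pair are paralogs of unequal level and CpG number and Rab6b does not follow that pattern. The windows lie on the plus strand at chr3:51483716-51484015, chrX:48519035-48519334 and chr9:103111824-103112123. They hold 28, 7 and 42 CpG dinucleotides.
Rab33b promoter: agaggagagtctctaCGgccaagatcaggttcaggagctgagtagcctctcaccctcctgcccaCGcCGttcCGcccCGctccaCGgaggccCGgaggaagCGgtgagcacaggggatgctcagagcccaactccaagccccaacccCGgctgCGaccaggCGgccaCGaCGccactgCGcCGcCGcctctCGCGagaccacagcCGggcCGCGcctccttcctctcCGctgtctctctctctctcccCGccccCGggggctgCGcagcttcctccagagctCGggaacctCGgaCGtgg
Rab33a promoter: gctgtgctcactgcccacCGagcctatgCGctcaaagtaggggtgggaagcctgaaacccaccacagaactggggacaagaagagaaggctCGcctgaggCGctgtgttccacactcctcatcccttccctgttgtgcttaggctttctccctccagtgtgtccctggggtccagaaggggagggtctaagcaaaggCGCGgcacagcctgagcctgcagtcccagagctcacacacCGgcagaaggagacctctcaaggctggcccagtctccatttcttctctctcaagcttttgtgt
Rab6b promoter: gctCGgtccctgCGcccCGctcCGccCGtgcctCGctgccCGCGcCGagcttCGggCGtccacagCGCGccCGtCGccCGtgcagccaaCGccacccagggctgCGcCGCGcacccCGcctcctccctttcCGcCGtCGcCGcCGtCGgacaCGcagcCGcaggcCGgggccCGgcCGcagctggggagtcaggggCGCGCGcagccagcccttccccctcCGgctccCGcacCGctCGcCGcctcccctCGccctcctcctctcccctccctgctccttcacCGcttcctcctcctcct

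Most Rab genes were present in these macrophages. At least 1 TPM in every library was reached by 38 of the 59 members (64.4%), against 41.4% of all protein-coding genes. A mean of 10 TPM or more was reached by 28 members (47.5%), against 18.9% of protein-coding genes. At 5 TPM or more in every library were 30 members (50.8%), against 26.2% of protein-coding genes. The median level of the members was 6.33 TPM, against 0.16 TPM over all protein-coding genes. The 21 members that averaged below 1 TPM made up 35.6% of the family, against 57.2% of protein-coding genes. In all, 3 members had 0 counts in every library (5.08%, against 33.1% of protein-coding genes): Rab3c, Rab9b and Rab25. In the library where that level is highest, 3 counts would make 0.023 TPM of Rab3c, 0.017 TPM of Rab9b and 0.118 TPM of Rab25, a limit that covers counting error only. The upper bounds the authors deposited for replicate 1 were wider for Rab3c (0.166 TPM) and Rab25 (0.916 TPM). The second transcript tables, made by another method from the same reads, listed 0.097 TPM of Rab3c, 0.037 TPM of Rab9b and 0.040 TPM of Rab25 in replicate 1.

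Together the members made 1359, 1088 and 1074 TPM in replicates 1, 2 and 3, which was 0.396%, 0.392% and 0.387% of the TPM of protein-coding genes. Their share of the counts of protein-coding genes was 0.506%, 0.505% and 0.504%. The family's part of the coding RNA thus differed little between the libraries, although the summed TPM was highest in replicate 1. A few members held most of it: the 7 highest, Rab7, Rab5c, Rab8b, Rab1a, Rab11a, Rab10 and Rab14, made 51.2% of the members' TPM. In all, 8 members were at 50 TPM or more, 20 between 10 and 50 TPM and 10 between 1 and 10 TPM.

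The class and list counts that follow stand beside the same shares of protein-coding genes. These are 41.4% at 1 TPM or more in every library and 18.9% at a mean of 10 TPM or more. For the whole family the shares were 64.4% and 47.5%. Classes and lists were chosen with earlier results of these data known, so their counts describe the genes listed and were not tested.

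**Figure D1:**
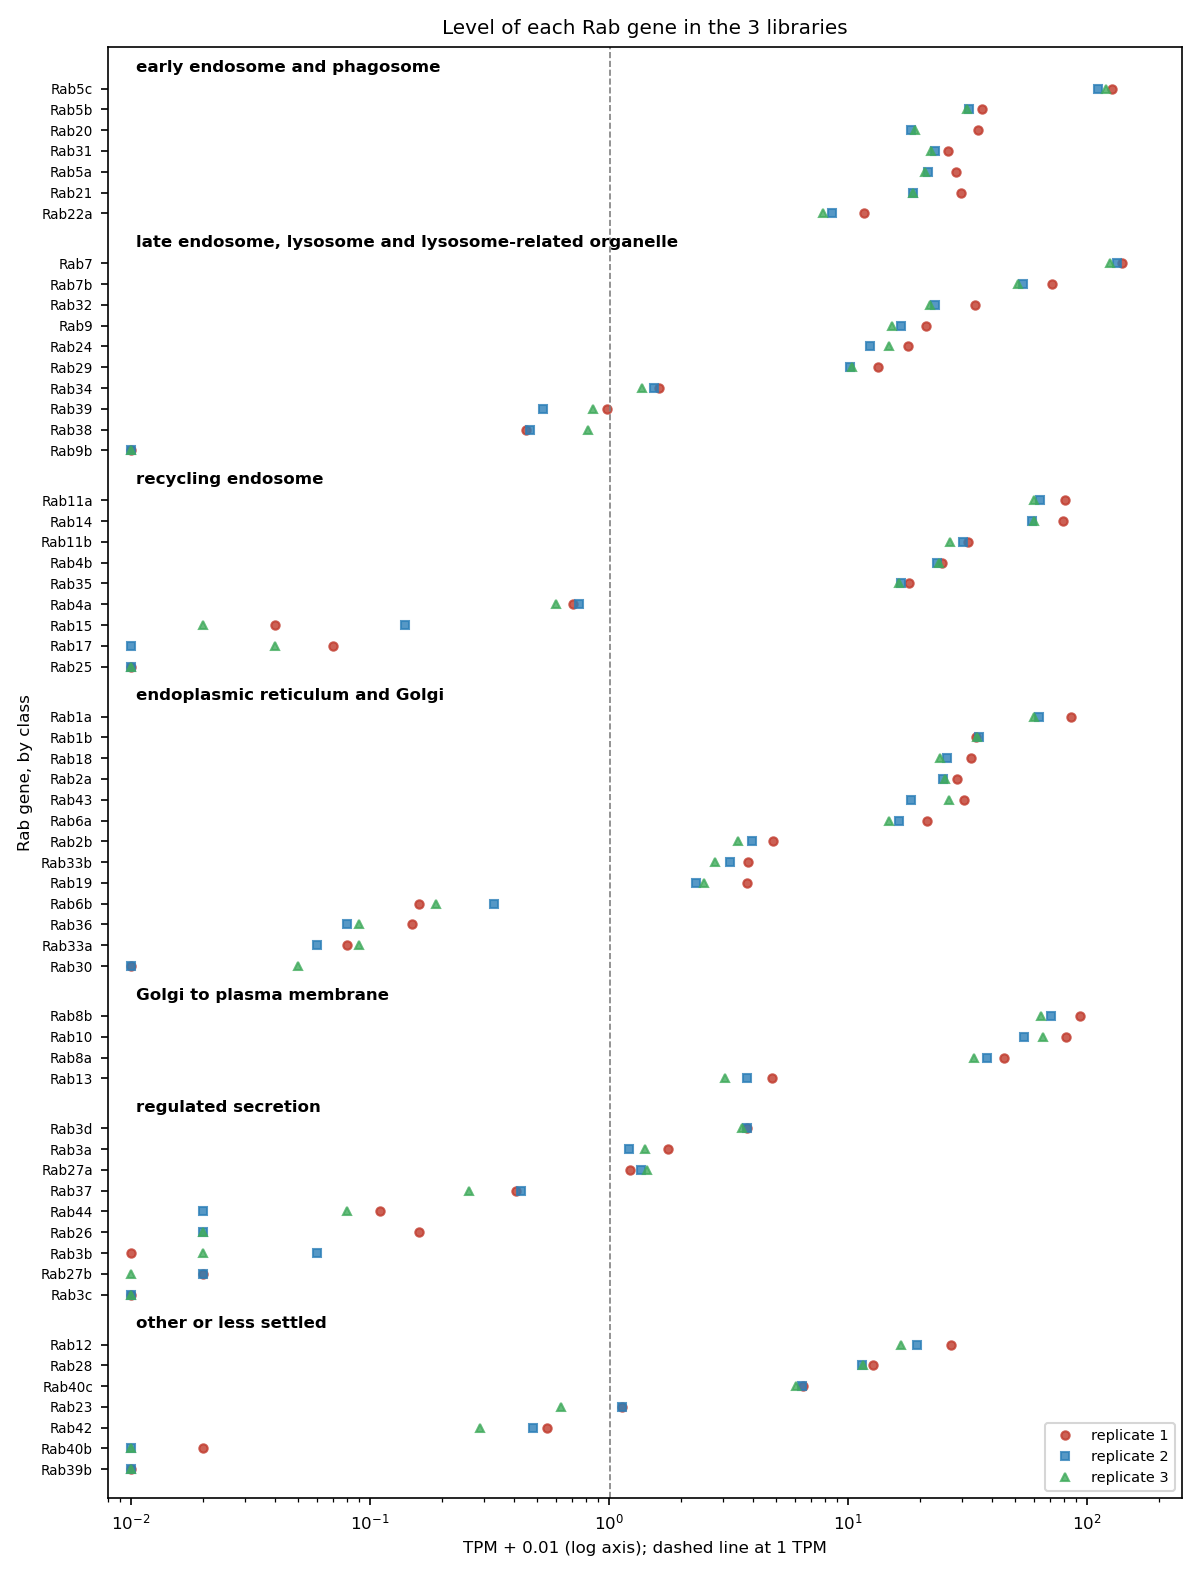
Level of each Rab gene in replicates 1, 2 and 3, in TPM + 0.01 on a log axis, with genes grouped by the transport step they are known for and ordered by mean level; each point is a library and the dashed line stands at 1 TPM. Every early endosome and Golgi to plasma membrane member lies right of the line, while 6 of the 9 regulated secretion members lie left of it.

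The early endosome and phagosome members were all present. All 7 were at 1 TPM or more in every library and 6 at 10 TPM or more, with a median of 23.9 TPM and a sum of 256 TPM, or 21.8% of the family. Rab5c (ENSMUSG00000019173.11, chr11:100715009-100738215, minus strand), which drives fusion of early endosomes, had 126.9, 111.8 and 119.7 TPM in replicates 1, 2 and 3, a mean of 119 ± 7.57 TPM (SD, n = 3). Its close relative Rab5b had 36.3, 32.0 and 31.4 TPM. Rab5a, the best studied of the Rab5 proteins, had 28.3, 21.7 and 21.1 TPM. In every library the order was Rab5c, Rab5b, Rab5a, and Rab5c made 67.8 ± 1.65% of their summed TPM (SD, n = 3).

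Rab20 (ENSMUSG00000031504.6, chr8:11453518-11478710, minus strand), which acts in macropinosome and phagosome maturation, had 35.2, 18.3 and 19.1 TPM, a mean of 24.2 ± 9.50 TPM (SD, n = 3). Replicate 1 was far above the other libraries, which lay close together. Rab21, an early endosomal Rab that binds integrins, had 29.6, 18.7 and 18.7 TPM and so the same split. Rab31 (23.9 ± 2.06 TPM) and Rab22a (9.36 ± 2.04 TPM, both SD, n = 3), a related pair that act between the trans-Golgi network and endosomes, were the remaining members. Rab22a was the lowest of the class, though still at the 80.3 percentile of protein-coding genes.

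Late endosomal and lysosomal members fell into a high and a low set. Of 10 members, 7 were at 1 TPM or more in every library and 6 at 10 TPM or more, with a median of 13.2 TPM and a sum of 265 TPM, or 22.6% of the family. Rab7 (ENSMUSG00000079477.9, chr6:87999106-88045270, minus strand), which directs fusion with lysosomes, had 140.1, 134.1 and 124.4 TPM and was the highest Rab gene of all, at 132.9 ± 7.93 TPM (SD, n = 3). It exceeded Rab5c in each library, but the ranges of the 2 genes over libraries overlapped. Rab7b, which acts between endosomes and the trans-Golgi network, had 71.8, 54.2 and 51.5 TPM.

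Rab32 (ENSMUSG00000019832.5, chr10:10545002-10558265, minus strand), known from lysosome-related organelles and from the defence of macrophages against Salmonella, had 33.9, 23.1 and 22.1 TPM, a mean of 26.4 ± 6.54 TPM (SD, n = 3). As for Rab20, replicate 1 was highest and the others were close. Its relatives were lower: Rab29, a Rab tied to the kinase LRRK2, averaged 11.3 ± 1.80 TPM and Rab38, which acts with Rab32 in pigment cells, 0.57 ± 0.208 TPM (SD, n = 3 each). Rab9, which returns mannose 6-phosphate receptors to the Golgi, averaged 17.7 TPM and Rab24, an atypical Rab of autophagy, 15.0 TPM. Rab34, known from macropinosomes and cilia, averaged 1.503 TPM. Rab39 stayed below 1 TPM with 0.97, 0.52 and 0.85 TPM.

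Recycling members were also split, into 5 members at 10 TPM or more and 4 below 1 TPM. Rab11a, the main Rab of the slow recycling route, had 81.4, 63.7 and 59.9 TPM. Rab14, which acts between Golgi, endosomes and young phagosomes, had 79.6, 59.2 and 60.1 TPM. In TPM both were higher in replicate 1 than in the other libraries. After rescaling to protein-coding genes the differences were small, with 237.0, 229.5 and 215.9 TPM for Rab11a and 232.0, 213.0 and 216.4 TPM for Rab14. Rab11b averaged 29.6 TPM, Rab4b, of the fast recycling route, 24.2 ± 0.525 TPM and Rab35, another fast recycling Rab, 17.0 ± 0.839 TPM (SD, n = 3 each). The low members were Rab4a at 0.677 TPM, and Rab15, Rab17 and Rab25, which are known from neurons and epithelia, at 0.057, 0.030 and 0 TPM. Rab15 counts were uneven, with 4, 35 and 2 in replicates 1, 2 and 3.

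Of the 13 endoplasmic reticulum and Golgi members, 9 were at 1 TPM or more in every library and 6 at 10 TPM or more, with a median of 4.09 TPM and 18.05% of the family's TPM. Rab1a, which carries cargo from the endoplasmic reticulum to the Golgi, had 85.7, 63.0 and 60.3 TPM, and its paralog Rab1b 34.4, 35.3 and 34.8 TPM. In TPM Rab1b had an SD of 0.468 TPM, but after rescaling to protein-coding genes it had 100.2, 127.2 and 125.2 TPM and was lowest in replicate 1. Rab18, linked to lipid droplets and the endoplasmic reticulum, averaged 27.7 TPM, Rab2a, of the same early secretory route, 26.4 TPM, Rab43, a Golgi Rab, 25.1 TPM and Rab6a, of retrograde Golgi transport, 17.5 TPM. Below 10 TPM were Rab2b (4.09 TPM), Rab33b, which binds an autophagy factor (3.26 TPM), and Rab19 (2.85 TPM). Rab6b, Rab36, Rab33a and Rab30 averaged 0.217, 0.097, 0.067 and 0.013 TPM.

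The 4 members of the route from the Golgi to the plasma membrane had the highest class median, 53.2 TPM, and 15.9% of the family's TPM. Rab8b had 93.9, 70.7 and 64.5 TPM. Rab10, which in macrophages is known to carry Toll-like receptor 4 to the surface, had 82.0, 54.6 and 65.7 TPM. Rab8a, of the same subfamily, had 45.0, 38.1 and 33.8 TPM, and Rab13, known from epithelial junctions, averaged 3.88 TPM. The ranges of Rab8b and Rab10 overlapped, and Rab13 lay far below all others of the class.

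Regulated secretion was the lowest class. Of 9 members, 3 were at 1 TPM or more in every library, none reached 10 TPM, the median was 0.060 TPM and all together made 6.997 TPM, or 0.596% of the family. Rab3d, found on secretory granules, had 3.76, 3.77 and 3.59 TPM. Rab3a, the main Rab of synaptic vesicles, had 1.76, 1.20 and 1.41 TPM, and Rab27a, which docks lysosome-related granules, 1.22, 1.35 and 1.43 TPM. Those were the highest of the class, and Rab37 followed at 0.357 TPM. Rab44 and Rab26 averaged 0.060 and 0.057 TPM, Rab3b 0.020 TPM, and Rab27b had 6 counts over the libraries.

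Among the 7 members with other or less settled roles, Rab12, which sends receptors to lysosomes, averaged 21.02 TPM, Rab28, a cilium Rab, 11.9 TPM and Rab40c, which joins a ubiquitin ligase, 6.33 TPM. Rab23, a Rab of Hedgehog signalling, averaged 0.96 TPM, just under the detection level, and was at 1.13, 1.13 and 0.62 TPM in the libraries. Rab27a at 1.33 TPM was the member just above that level. Rab42 averaged 0.43 TPM, while Rab40b and the brain Rab Rab39b had 1 count each over all libraries.

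The order of neighbouring levels was often not resolved. Of the 37 neighbouring pairs among the 38 members at 1 TPM or more, the higher gene was higher in all libraries in 15, and the ranges over libraries were apart in 5. Those 5 steps were Rab5c above Rab8b, Rab7b above Rab8a, Rab22a above Rab40c, Rab40c above Rab2b and Rab19 above Rab34. Between Rab8b and Rab7b, the 3rd to the 8th in rank, no neighbours had ranges apart. Rank also depended on the scale: Rab11a was 5th in TPM and 21st in counts, and Rab8b, 3rd in TPM, was 1st in counts.

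Paralogs were expressed unequally. In each of 20 pairs, the TPM ratio of the gene named first to the gene named second was taken within each library. The pairs were chosen with earlier results of these data known, and several name the later letter or number first, as Rab5c with Rab5a. How many pairs have the first gene higher therefore depends on that order and is no result in itself. The first gene was higher in all 3 libraries in 18 pairs and lower in all 3 in the other pairs, Rab4a with Rab4b and Rab8a with Rab8b. With 3 libraries an exact two-sided sign-flip test cannot go below p = 0.25, so the ratios are given with their spread and no test.

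Several wide ratios joined an expressed member to one that was nearly silent. Those given here are of pairs with both genes above 0 TPM in every library. Rab6a had 21.4, 16.4 and 14.8 TPM and Rab6b, described mainly from neurons, 0.15, 0.32 and 0.18 TPM, a ratio of 84.4-fold or 6.40 ± 0.74 on the log2 scale (SD, n = 3). Rab33b had 3.81, 3.20 and 2.76 TPM and Rab33a 0.07, 0.05 and 0.08 TPM, a 49.3-fold ratio that rests on 3, 4 and 8 counts of Rab33a. Rab32 exceeded Rab38 47.3-fold on average, but by 77.1-fold in replicate 1 and 27.3-fold in replicate 3. Rab4a had 0.70, 0.74 and 0.59 TPM, against 24.7, 23.6 and 24.1 TPM of Rab4b, a log2 ratio of -5.16 ± 0.18 (SD, n = 3), which puts Rab4b 35.9-fold higher. For Rab27a over Rab27b, Rab40c over Rab40b, Rab39 over Rab39b, Rab9 over Rab9b and Rab11a over Rab25 the second gene was at 0 TPM in at least 1 library, and no mean ratio is given.

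In the remaining pairs the genes differed less, and both were at 1 TPM or more. The ratio was 6.51-fold for Rab2a over Rab2b, 5.08-fold for Rab5c over Rab5a and 3.60-fold for Rab5c over Rab5b. Rab31 over Rab22a and Rab3d over Rab3a were both at 2.58-fold. Rab11a exceeded Rab11b 2.29-fold and Rab32 exceeded Rab29 2.30-fold. Rab7 exceeded Rab7b 2.27-fold, by 1.95-fold in replicate 1 and 2.47-fold in replicate 2. Rab1a exceeded Rab1b 1.98-fold, by 2.49-fold in replicate 1 and 1.73-fold in replicate 3. On log2 CPM, Rab1a was 0.16 higher in replicate 1 than in the mean of the others and Rab1b 0.30 lower. Rab8a was below Rab8b with a log2 ratio of -0.96 ± 0.09 (SD, n = 3), and this ratio was -2.18 when protein-coding transcripts alone were counted.

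**Figure D2:**
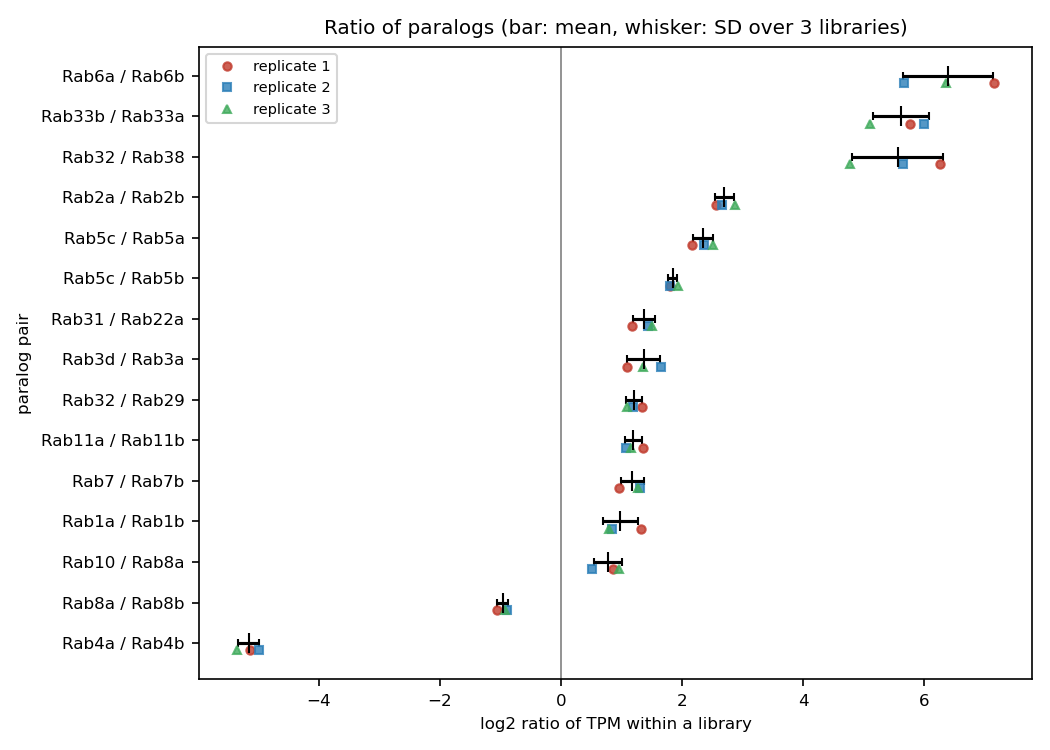
Log2 ratio of TPM between paralogs, gene named first over gene named second, for the 15 pairs in which both genes had a level above 0 in every library; points are libraries, the tick is the mean and the whiskers are the SD over 3 libraries. Only Rab8a over Rab8b and Rab4a over Rab4b lie left of 0 among these pairs.

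Short annotated transcripts held a large part of some levels. The annotation lists 256 transcripts of the members, 155 of them protein coding. Of the 38 members at 1 TPM or more, 30 had at least 95% of their TPM in protein-coding transcripts, with a median of 99.2%, and 3 had under 80%. These were Rab8a, Rab40c and Rab11a, at 43.1, 75.2 and 79.7%. The same shares were not computed over all protein-coding genes, so these counts describe the members and set them apart from no other genes. In the second transcript tables the members under 80% were Rab8a, Rab11a, Rab35 and Rab11b, at 34.96, 70.0, 78.2 and 79.4%, and Rab40c was at 82.3%. For Rab8a the retained-intron transcript Rab8a-202 had 27.0, 21.4 and 18.3 TPM and the full-length coding transcript Rab8a-201 18.01, 16.6 and 15.5 TPM. Rab8a-202 is 542 bases long and Rab8a-201 4550 bases, and only 128 bases of Rab8a-202 lie past exon 5. The retained-intron transcript therefore took 59.99, 56.1 and 54.3% of Rab8a TPM but on average 8.60% of its expected counts.

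Rab11a showed the same dependence on short models. The 595-base coding transcript Rab11a-201 had 29.2, 22.3 and 27.1 TPM, and the 2336-base coding transcript Rab11a-208 15.2, 11.8 and 11.9 TPM, although Rab11a-208 held more counts in every library. In Rab11b, transcripts annotated for nonsense-mediated decay held 15.7 ± 0.87% of TPM, and in Rab40c processed transcripts held 24.5 ± 6.33% (SD, n = 3 each).

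**Figure D3:**
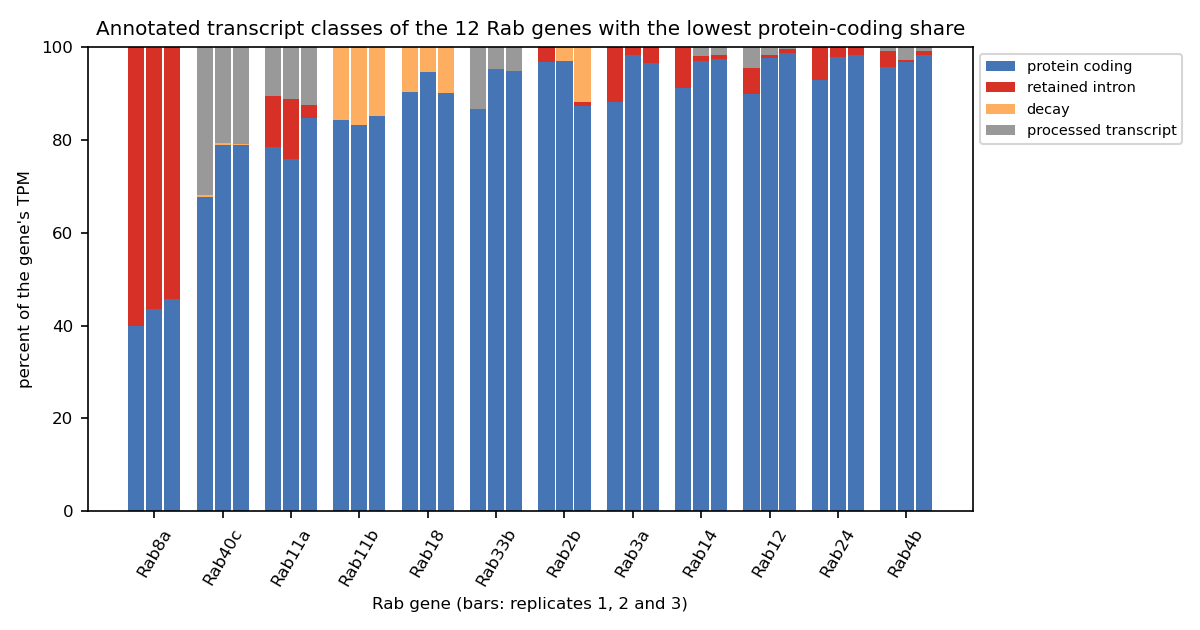
Share of each gene's TPM, in percent, held by annotated protein-coding, retained-intron, decay and processed transcripts for the 12 Rab genes of 1 TPM or more with the lowest protein-coding share; the 3 bars of a gene are replicates 1, 2 and 3. Rab8a stands out with 54.3 to 59.99% in the retained-intron transcript.

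Retained-intron transcripts were also where replicate 1 stood apart. Of the 17 members at 1 TPM or more with such a transcript, 13 had its highest share in replicate 1 (76.5%), against 82.7% of protein-coding genes of the same kind. Their median share was 3.07, 0.25 and 0.26% of gene TPM in replicates 1, 2 and 3, against 5.39, 0.70 and 0.72% over all protein-coding genes of the same kind. Rab14 had 8.73, 1.03 and 0.82%, and Rab12 5.68, 0.57 and 0.78%. Rab11a did not follow this, with 11.0, 12.9 and 2.89%, so that replicate 3 was far below the other libraries. Malat1, as given above, was higher in replicate 1 too, and the part of nuclear RNA in these shares was not tested.

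Both Rab6a exons were used. Transcripts with the upstream exon had 12.2, 7.91 and 7.42 TPM and the transcript with the downstream exon 8.81, 8.44 and 7.36 TPM. The upstream share was 58.0, 48.4 and 50.2%, a mean of 52.2 ± 5.11% (SD, n = 3). It was 47.7% of counts and 44.6% in the second transcript tables, so which exon was more used was not settled. In human cells these exons are known to give the isoforms Rab6A and Rab6A'. In Rab7b, the transcript with the exon printed above had 33.8, 26.0 and 25.3 TPM and the one without it 36.5, 26.7 and 25.1 TPM. The share with the exon was 49.2 ± 1.07% of TPM (SD, n = 3), but 74.2% of counts, and 41.5% of TPM in the second tables.

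Other pairs of coding transcripts moved between the libraries. Of the Rab43 pair, Rab43-203 took 51.5, 72.9 and 75.1% of their TPM and the rest was Rab43-201. In the second transcript tables that share was 78.6, 98.4 and 97.5%, so its level depended on the tables while replicate 1 was lowest in both. Of the Rab28 pair, the shorter-coding Rab28-205 took 10.52, 24.8 and 17.98% of TPM, and 20.9, 35.9 and 28.4% in the second tables. Replicate 2 was highest in both. Of the pair's expected counts Rab28-205 took 4.98, 13.1 and 8.86%, from 35.8, 167 and 130 counts. Changes in these shares between the libraries were not tested.

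The next comparison asks which members differed between libraries by more than counting error. Of the 46 members that passed edgeR's expression filter, 39 varied beyond it at a Benjamini-Hochberg adjusted p of at most 0.05 in a chi-square test of counts (84.8%), against 71.5% of all 12515 genes tested. Without replicate 1 the count was 20 of 46 (43.5%), against 40.4% of 12697 genes. The 7 that did not pass were Rab28, Rab29, Rab34, Rab36, Rab3a, Rab42 and Rab4a. This test detects smaller differences at higher counts, and the members were not matched to all genes by count. The median biological coefficient of variation, edgeR's estimate of spread between libraries beyond counting error, was 0.144 for the members and 0.172 for all genes tested. Without replicate 1 these medians were 0.093 and 0.104. The estimate of a gene is drawn towards that of genes of similar level and is not its own spread. Rab36, which did not pass the test, had 0.354.

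On log2 CPM, counts scaled to the library and free of the TPM total, the median member was 0.11 higher in replicate 1 than in the mean of replicates 2 and 3, against -0.01 for all genes tested. In replicate 1, 27 of the 46 members were higher (58.7%), against 48.3% of all genes. A difference of over 0.5 in either direction was seen in 4 members (8.70%), against 20.9% of all genes. They were Rab36 (0.73) and Rab20 (0.64), which were higher in replicate 1, and Rab38 (-0.72) and Rab6b (-0.97), which were lower. Rab38 and Rab6b also differed between the other libraries, with replicate 2 minus replicate 3 at -0.83 and 0.78. Rab36, Rab38 and Rab6b averaged under 100 counts a library, and Rab36 did not pass the test of variation. Rab20 had 1868, 2008 and 2277 counts, from libraries of which replicate 1 was the smallest.

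Smaller differences of the same kind were seen in Rab21 and Rab19, each 0.38 higher in replicate 1, and in Rab32, 0.32 higher. Rab27a, Rab23 and Rab1b were lower in replicate 1, by -0.48, -0.32 and -0.30. Some members differed between the other libraries: replicate 2 minus replicate 3 was -0.58 for Rab43, -0.74 for Rab39 and 0.66 for Rab37.

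**Figure D4:**
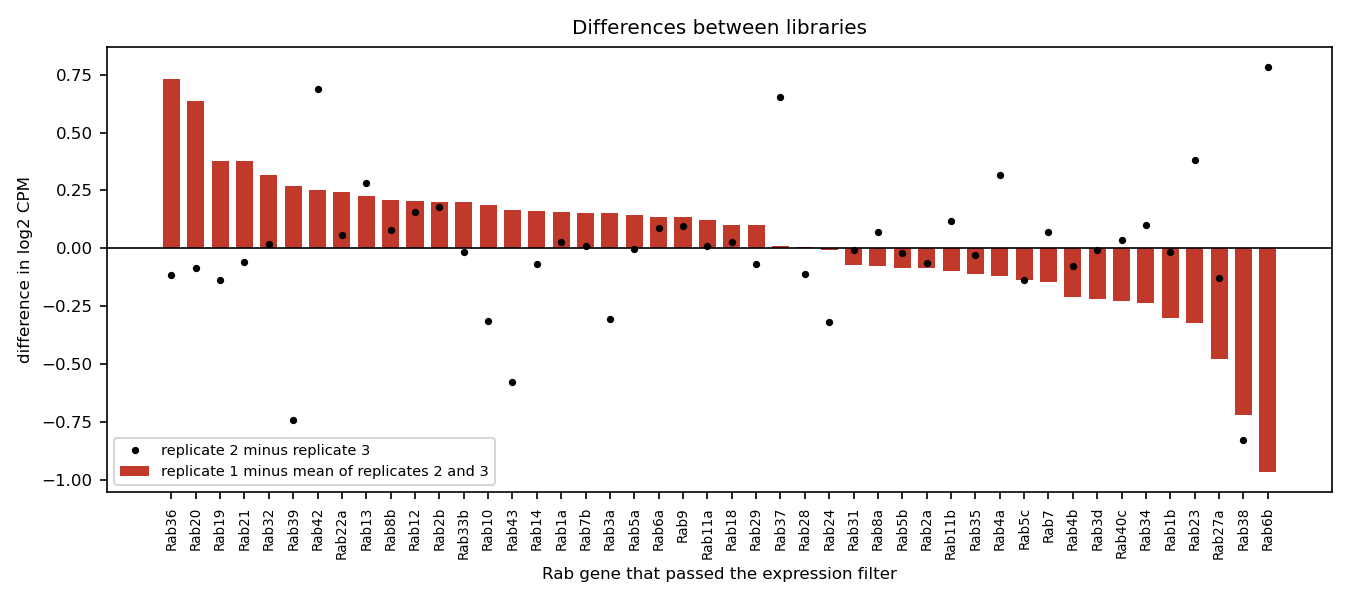
Difference in log2 CPM between libraries for the 46 Rab genes that passed the expression filter; bars give replicate 1 minus the mean of replicates 2 and 3, dots give replicate 2 minus replicate 3. Rab20 stands high on its bar, at 0.64, with a dot near 0, while Rab43 has the dot at -0.58.

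Regulators of the family were present as well. Of the 8 genes that prenylate Rabs or take them off membranes, 7 were at 1 TPM or more in every library. Gdi2, which extracts GDP-bound Rabs, had 161.5, 140.2 and 142.7 TPM, more than any Rab gene in each library. Rabac1, a Rab acceptor, averaged 22.9 TPM, the transferase subunits Rabggtb and Rabggta 12.3 and 3.97 TPM, and the escort proteins Chm and Chml 4.90 and 1.09 TPM. Rabif, a chaperone of nucleotide-free Rabs, averaged 4.69 TPM.

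Of 33 exchange factors, 27 were at 1 TPM or more in every library, with a median of 5.88 TPM. Highest were Rab3il1, which activates Rab8 proteins, at 36.5 TPM, Dennd1a, which activates Rab35, at 35.3 TPM, Ccz1, part of the Rab7 activator, at 27.6 TPM and Dennd1b, another activator of Rab35, at 22.9 TPM. Lowest were the Rab5 activator Rin1 at 0.047 TPM and the Rab12 activator Dennd3 at 0.043 TPM. Of 34 GTPase-activating proteins, 29 were at 1 TPM or more, with a median of 7.70 TPM. Tbc1d13, which acts on Rab35, led with 90.5, 59.4 and 61.7 TPM, followed by Tbc1d20, which acts on Rab1, at 21.7 TPM, Tbc1d10b at 19.5 TPM and Tbc1d2b at 19.3 TPM. Tbc1d30 averaged 0.033 TPM and Sgsm1 had 0 counts in every library.

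Effector lists differed in how many members were present. All 22 listed effectors of endosomes and phagosomes were at 1 TPM or more in every library, with a median of 10.9 TPM. Of the 31 listed effectors of recycling and secretion, 16 were, with a median of 1.26 TPM. Both lists were chosen with earlier results of these data known, so the contrast describes the genes listed and was not tested. The first list was led by Ankfy1, a Rab5 effector, at 30.2 TPM, the tether subunit Vps33a at 29.4 TPM, the Rab7 effector Plekhm1 at 25.3 TPM and the tether subunit Vps41 at 22.98 TPM. Its lowest were Rabep2, a Rab5 effector, at 3.67 TPM and Rilp, which links Rab7 to dynein, at 1.85 TPM. The second list was led by the motor Myo5a at 100.6 TPM, Rilpl2 at 45.9 TPM, the Rab8 effector Ehbp1l1 at 41.6 TPM and Rufy3 at 35.5 TPM. At its low end, 3 genes tied with 0 counts in every library: Rims1, a Rab3 effector of synapses, and the Rab27 effectors Myrip and Sytl5.

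Some levels share reads with other genes. In the annotation, 32 members overlap another gene, and in 10 of them that gene was at 1 TPM or more. The counts of overlaps and of shared reads given here were not taken over all protein-coding genes. They therefore show no trait particular to Rab genes. Rab24, at 15.0 TPM, shares 62.4% of its exon bases with Prelid1, at 63.2 TPM on the opposite strand. Rab20 shares 25.6% with E230013L22Rik (1.34 TPM) and Rab6a 19.0% with Mrpl48 (8.75 TPM), both on the opposite strand. How strand was treated in the counting is not stated in the labels or notes, so reads of these antisense pairs cannot be told apart. Of the members, 14 had expected counts that were not whole within 0.005 and so shared reads with other genes, among them Rab7, Rab8b, Rab10 and Rab20. The other 45 had whole counts, among them Rab26, which shares 9.36% of its exon bases with Traf7 on the same strand.

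Promoter CpG number went with level within the family as over all genes. The median was 24 CpG in the windows of 35 members at 1 TPM or more, and 11 in those of 13 members below it. Over all protein-coding genes the medians were 21 and 6. Rab33b and Rab33a, printed above, follow that order, with 28 CpG at 3.26 TPM and 7 CpG at 0.067 TPM. Rab6a and Rab6b do not, with 29 CpG at 17.5 TPM in Rab6a and 42 CpG at 0.217 TPM in Rab6b. Rab23, with 32.5 CpG at 0.96 TPM, and Rab39, with 27 CpG at 0.78 TPM, were also low members with many CpG. At the other end, Rab9 at 17.7 TPM had 9 CpG and Rab32 at 26.4 TPM had 10. Windows were available for 35 of the 38 members at 1 TPM or more, but for only 13 of the 21 below it. Windows of a gene were averaged, so Rab15, with windows of 38, 8, 4 and 3 CpG, entered at 13.25.

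**Figure D5:**
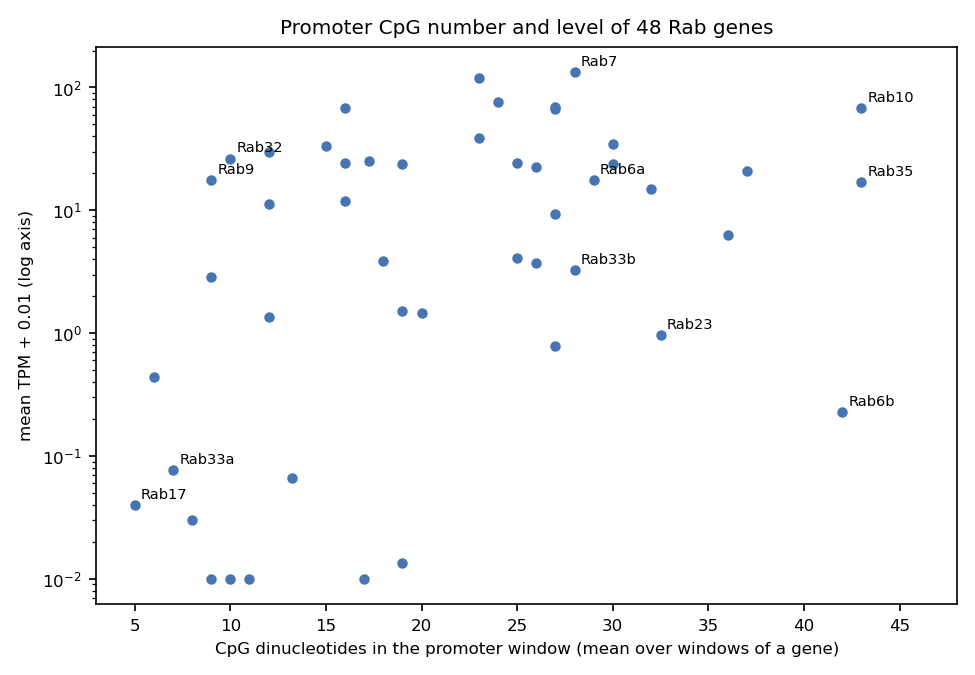
Number of CpG dinucleotides in the promoter window (mean over the windows of a gene) against mean level in TPM + 0.01 on a log axis, 1 point for each of 48 Rab genes. Members below 1 TPM lie mostly at low CpG numbers, with a median of 11, but Rab6b (42 CpG), Rab23 (32.5) and Rab39 (27) lie above the median of 24 of the expressed members.

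Motif letters were looked for on both strands of 60 member windows and 32851 windows of all genes. The E-box CACGTG was in 10.0% of member windows, against 7.15% of all windows. The windows with it were those of Rab20, Rab21, Rab23, Rab24, Rab27a and Rab5a. TATAAA was in 6.67%, against 13.6% of all, and the members with it were Rab7, Rab3b, Rab39b and Rab42. A window can hold both motifs.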

How the data were processed

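Total RNA of the cytosolic fraction was measured in 3 libraries. Per the notes deposited with the files, reads were aligned to the transcriptome of mm10 with GENCODE M21. The authors deposited expected counts, estimated and often fractional, which were rounded here for tests. The authors' TPM values, named so per the file headers, are scaled over every listed feature, with tRNAs and spike-ins among them. Transcript shares are deposited as a percent of gene TPM. The deposited bounds of the TPM interval, a signal on the TPM scale, were read for members with 0 counts. A second transcript table of each library, made directly from the reads, also holds the authors' estimated counts and TPM. For strand setting and tool versions, nothing is given in the sources used here. Entries that name no gene took 0.435, 0.134 and 0.082% of counts and stayed out of library sizes and tests.

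Classes, paralog pairs and regulator lists were chosen with earlier results of these data known. Every Rab gene may be named, with the 4 highest and 2 lowest genes of each regulator list, the prenylation list, and the leading and lowest markers. A result that this rule would name is not reported here. Malat1, the overlapping and the Rab-like genes were picked outside it with their values known. Variation was tested with edgeR 4.0.16 in R 4.3.3 (its expression filter, TMM normalization, prior count of 2) by a chi-square test of each gene against 1 rate, over 12515 genes, and checked on simulated data. DESeq2 1.42.0 size factors, other filters, scales and tables were tried as alternatives. Depth was 32108408 to 57117456 expected counts.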

Additional observations from a re-analysis of the deposited data

How the results depend on the processing

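No paired analysis was possible because all libraries belong to a single group. The count of members at 1 TPM or more in every library (38) was 30 at 5 TPM and 46 at 10 counts. It was 43 after rescaling TPM to protein-coding genes, and 38 to 39 when a replicate was left out. In the second transcript tables it was 31, and 44 there after rescaling to protein-coding genes, an alternative chosen after seeing the data. The median level (6.33 TPM) was 2.71 in the second tables, where protein-coding genes take a smaller share of TPM (24.3, 10.1 and 8.15% in replicates 1, 2 and 3), 21.3 after rescaling to protein-coding genes, 23.8 over members of at least 1 TPM on average, 20.0 in the second tables after rescaling, an alternative chosen after seeing the data, and 6.25 to 6.46 with a replicate left out. In the second tables the class medians were 10.8 for early endosome, 5.83 for late endosome, 8.48 for recycling, 1.80 for endoplasmic reticulum and Golgi, 25.9 for Golgi to plasma membrane and 0.589 TPM for other members. Members varying beyond counting error numbered 38 (82.6%, against 71.5% of all genes) with DESeq2 size factors, 35 (62.5%, against 53.9%) without a filter on low counts and 36 (76.6%, against 76.8%) in the second tables, where the members' share was no higher than that of all genes. With a replicate left out they numbered 20 to 32: 32 (69.6%) without replicate 2, against 58.2%, 32 (69.6%) without replicate 3, against 61.5%, and 20 without replicate 1. The median departure of replicate 1 (0.11) was 0.27 on log2(TPM + 1), whose scale holds the unequal coding share. The median protein-coding share of TPM (99.2%) was 97.9% in the second tables. Of 20 paralog pairs, 18 had the first gene higher in every library used under each alternative, a count that depends on the order of naming. These alternatives were 0.1 or 1 TPM added, the second tables, protein-coding transcripts alone and a replicate left out. Of single pair ratios and transcript shares, 17 values moved by more than the spread between libraries and 97 did not, and no pair ratio changed sign. Rab8a over Rab8b was -2.18 on the log2 scale with protein-coding transcripts and -0.67 in the second tables. Depth limits the members with a few counts, such as Rab33a, Rab26 and Rab17.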

Other observations

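Genes named after Rabs but outside the family were measured as well. Rab5if, whose name refers to Rab5, had 75.9, 61.4 and 66.4 TPM in replicates 1, 2 and 3, close to Rab1a and Rab11a. The Rab-like GTPases Rabl6, Rabl3 and Rabl2 averaged 12.5, 4.18 and 0.963 TPM, and Rabepk 4.21 TPM (n = 3 each). The antisense gene Rab10os had 8.11, 7.02 and 5.17 TPM and shares 4.07% of the exon bases of Rab10.

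Rab7 had 12022, 23504 and 23936 expected counts in replicates 1, 2 and 3, against 14.6, 29.4 and 27.9 of its processed pseudogene Rab7-ps1. Rab11b had 2509, 4824 and 4753 expected counts, against 0, 25.0 and 19.7 of Rab11b-ps2. The pseudogenes Rab9b-ps1 and Rab5a-ps had 0 counts in every library. Rab4a had 0.677 TPM, against 11.2 TPM of Gm20388, a coding gene that overlaps it on the same strand, and their annotated exons share 0 bases. Over the 59 members, levels in both sets of tables, rescaled to protein-coding genes, had a Spearman rho of 0.993 across genes, which share libraries and are not independent replicates.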
